A study of Homo sapiens with 6 samples.

Results

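FTC-133, an established human follicular thyroid carcinoma line, was described by setting its control library beside the control libraries of BHT-101 and 8505C, both established anaplastic thyroid carcinoma lines. These are 3 of the 6 RNA sequencing libraries of the series, and the other 3 hold the same lines after CRABP2 was lowered or raised. FTC-133 and BHT-101 cells had received a control small interfering RNA (siControl), whereas 8505C cells had received an empty vector (Empty), so that for 8505C the line and the kind of transfection cannot be told apart. In the second libraries FTC-133 and BHT-101 had received an siRNA against CRABP2 (siCRABP2) and 8505C a CRABP2 expression vector. Each line is a culture of tumour cells with no other cell type labelled, and each condition was represented by 1 library. No difference between lines therefore has a replicate check, and no test was made.

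The deposited table gives expression as FPKM (fragments scaled for exon length and for library depth) for 58884 gene identifiers, of which 19945 are protein-coding. A protein-coding gene was measured if its FPKM was at least 1 in 1 or more of the 3 control libraries, which held for 11961 genes. Values were compared as log2(FPKM + 1), on which a difference of a low gene is understated. A gene was called apart from both lines if FTC-133 lay at least 2 above both, or at least 2 below both, on this scale. The smaller of the differences from BHT-101 and 8505C, with its sign, is called the smaller difference below. Read totals recovered from the values were 24823867 for FTC-133, 27958622 for BHT-101 and 22849556 for 8505C.

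Follicular thyroid carcinoma arises from the follicular epithelial cells of the thyroid, which take up iodide and build thyroid hormone on thyroglobulin under the transcription factors PAX8, NKX2-1 and FOXE1. Anaplastic carcinoma is the undifferentiated form of thyroid cancer, in which this programme and epithelial features are usually lost. BHT-101 and 8505C are known to carry an activating BRAF mutation, which drives the MAPK pathway.

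FTC-133 lay at least 2 above both lines for 250 of the 11961 measured genes (2.09%) and at least 2 below both for 92 (0.769%). In such bulk RNA, fewer cells with a transcript and less of it per cell cannot be told apart. The same count made around BHT-101 gave 298 genes above both other lines (2.49%) and 90 below (0.752%), and around 8505C it gave 206 above (1.72%) and 341 below (2.85%). The number of genes that set FTC-133 apart was thus within the range of the other lines in the upward direction and close to that of BHT-101 in the downward one. Against BHT-101 alone, FTC-133 was at least 2 higher for 430 genes (3.6%) and at least 2 lower for 451 (3.77%). Against 8505C alone the counts were 894 higher (7.47%) and 392 lower (3.28%), and higher calls made up 69.5% of these calls but 59.3% after quantile normalization. Across genes, log2 values of FTC-133 had a Pearson correlation of 0.795 with BHT-101 and 0.729 with 8505C, and BHT-101 and 8505C had one of 0.720, all over the same 11961 genes of these libraries.

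The second library of each line was used as a further look at the same lines, although it differs by the CRABP2 treatment. All 250 higher and all 92 lower genes kept their direction there, and 162 and 56 of them were again apart by at least 2. Control and second library had Pearson correlations of 0.972 in FTC-133, 0.996 in BHT-101 and 0.979 in 8505C. The genes had been chosen for a wide gap, so a kept direction was likely beforehand and is no check of the calls. In 157 genes (1.31% of those measured) both FTC-133 libraries lay at least 2 above all 4 libraries of the other lines, and in 53 (0.443%) at least 2 below. CRABP2 itself was not apart from both lines, at 8.94 FPKM in FTC-133, 27.3 in BHT-101 and 0.607 in 8505C. Its FPKM in the second libraries was 0.170, 11.4 and 38.0, so that the order of the lines in CRABP2 changed with treatment.

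Of the 250 higher genes, 70 were below 0.1 FPKM in both other lines, and of the 92 lower genes 30 were below 0.1 FPKM in FTC-133. At the edge of the rule WHRN lay just inside with a smaller difference of 2.005 and IL7R just outside with 1.9995. On the lower side VGLL3 lay just inside with -2.001 and PKP3 just outside with -1.996. Over all measured genes the median difference was 0.20 against BHT-101 and 0.15 against 8505C, and it became 0.07 and 0.04 when libraries were scaled by their median ratio, so differences of this order are general to the library.

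**Figure D1:**
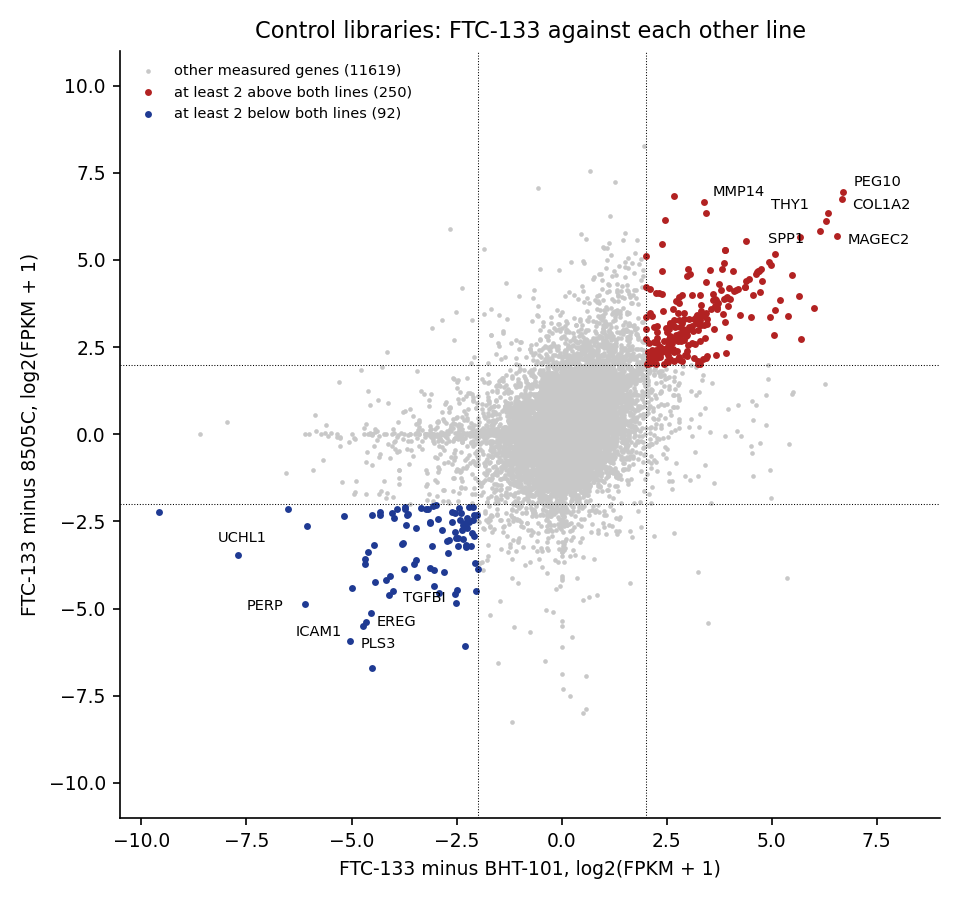
Each point is 1 of 11961 measured protein-coding genes, with the difference of FTC-133 from BHT-101 on the x axis and from 8505C on the y axis, both in log2(FPKM + 1) of the control libraries. The 250 genes in red lie at least 2 above both lines and the 92 in blue at least 2 below both, with PEG10 and COL1A2 at the upper and PLS3, ICAM1 and EREG at the lower end.

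The label of the line was checked against thyroid genes, beginning with the transcription factors. PAX8, the paired-box factor that keeps thyroid follicular cells differentiated, was at 12.3 FPKM in FTC-133, 0.233 in BHT-101 and 0.184 in 8505C. In the second libraries it was at 13.0, 0.273 and 0.141, so both FTC-133 libraries were above all others, and the smaller difference was 3.43. PAX8 lies on chromosome 2 (GRCh38, 113215997 to 113278950, minus strand), and its promoter is shown with the promoters of a pair of cancer-testis genes that were also above both lines, MAGEA4 and MAGEC2. The 300-base windows run 5′ to 3′ from 250 bases before to 50 after the RefSeq start on GRCh38.p14, at chr2:113278872-113279171 (minus strand) for PAX8, chrX:151912224-151912523 (plus strand) for MAGEA4 and chrX:142205241-142205540 (minus strand) for MAGEC2. Capitals mark CG dinucleotides, where cytosine can be methylated.
PAX8: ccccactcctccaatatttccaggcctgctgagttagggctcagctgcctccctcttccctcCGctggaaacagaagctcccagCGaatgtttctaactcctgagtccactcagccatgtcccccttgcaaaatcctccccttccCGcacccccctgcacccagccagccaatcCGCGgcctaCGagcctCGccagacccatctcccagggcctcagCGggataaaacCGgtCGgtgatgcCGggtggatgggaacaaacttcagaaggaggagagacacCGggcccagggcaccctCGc
MAGEA4: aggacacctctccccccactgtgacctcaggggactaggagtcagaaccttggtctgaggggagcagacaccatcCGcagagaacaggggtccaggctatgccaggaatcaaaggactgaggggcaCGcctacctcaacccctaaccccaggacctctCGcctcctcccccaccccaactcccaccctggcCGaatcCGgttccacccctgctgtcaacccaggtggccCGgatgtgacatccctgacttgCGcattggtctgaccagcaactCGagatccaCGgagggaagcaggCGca
MAGEC2: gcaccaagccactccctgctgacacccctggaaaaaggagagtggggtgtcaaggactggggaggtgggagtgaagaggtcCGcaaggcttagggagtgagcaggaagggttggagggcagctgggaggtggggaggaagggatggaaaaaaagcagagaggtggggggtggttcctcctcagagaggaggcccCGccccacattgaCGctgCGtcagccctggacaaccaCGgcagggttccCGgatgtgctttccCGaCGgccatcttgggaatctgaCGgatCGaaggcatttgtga

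The PAX8 window holds 13 CG dinucleotides and the MAGEA4 and MAGEC2 windows 10 each. Over all 27305 RefSeq promoter windows of this length, the median was 14, and 49.9% had 13 or fewer. CG reads the same on both strands and no other motif was searched. No methylation was measured here, so the windows only show where the start of each gene lies.

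NKX2-1, the homeodomain factor of thyroid and lung, was at 22.6 FPKM in FTC-133, 0 in BHT-101 and 16.7 in 8505C. It therefore separated BHT-101, not FTC-133, from the rest. FOXE1, the forkhead factor of the thyroid, was at 0.186 FPKM in FTC-133 and at 0 and 0.0506 in BHT-101 and 8505C. HHEX, a homeobox factor of early thyroid, was lowest in FTC-133 with 1.45 FPKM against 2.50 in BHT-101 and 7.57 in 8505C. GLIS3, a zinc finger factor needed for hormone synthesis, was at 2.66 FPKM in FTC-133, 0.773 in BHT-101 and 0.639 in 8505C, a gap too small for the rule.

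Of the genes behind the making and release of thyroid hormone, those given here (TG, SLC5A5 and TSHR) were near 0 in FTC-133 too. Thyroglobulin (TG), the hormone precursor, was at 0.0362 FPKM and the iodide symporter SLC5A5 at 0. TSHR, the receptor of thyroid-stimulating hormone, was at 0.451 FPKM in FTC-133 and at 0 in both other lines, and at 0.219 in the second FTC-133 library. Of the genes that define the thyroid follicular cell, FTC-133 thus held PAX8 and NKX2-1, and FOXE1, TG, SLC5A5 and TSHR were absent or near 0.

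Genes that act on thyroid hormone were not particular to FTC-133. The deiodinases, which activate or remove the hormone, were higher in BHT-101: DIO1 was at 0.124 FPKM in FTC-133 against 4.06 in BHT-101 and 0.0959 in 8505C, and DIO2 at 0.392 against 1.50 and 0.420. Of the hormone receptors, THRA was at 7.46, 3.49 and 7.01 FPKM in FTC-133, BHT-101 and 8505C, and THRB at 1.08, 1.77 and 0.0519. TFF3, a secreted trefoil peptide of thyroid epithelium, was at 68.3 FPKM in BHT-101 and listed at 0 in FTC-133 and 8505C. Of the 25 thyroid genes listed, 11 were measured, and PAX8 was the 1 above both lines by the rule. By any amount 5 of the 11 lay above both lines, and 3 were measured through FTC-133 alone. Not all of the 11 are given here, nor are all of the 3 measured through FTC-133 alone.

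**Figure D2:**
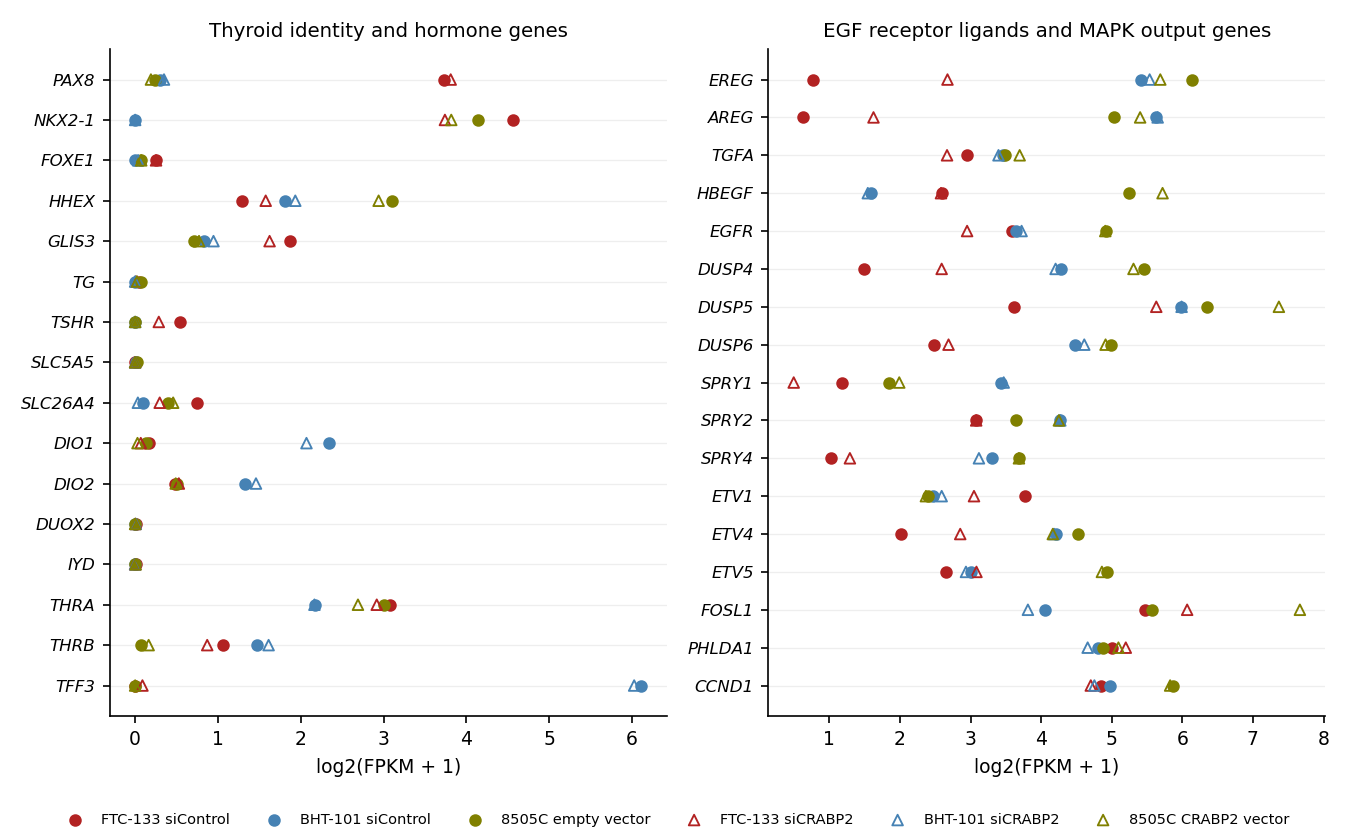
Expression as log2(FPKM + 1) on the x axis of thyroid genes (left) and of epidermal growth factor (EGF) receptor ligands with MAPK output genes (right) in the 6 libraries. Filled circles are the control libraries and open triangles the CRABP2-treated ones. PAX8 is high in both FTC-133 libraries alone, whereas EREG, AREG and DUSP4 are lowest there.

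The genes farthest above both lines were led by PEG10, a retrotransposon-derived gene on chromosome 7 that is expressed from the paternal copy. PEG10 was at 122 FPKM in FTC-133, 0.182 in BHT-101 and 0 in 8505C, and at 55.9, 0.228 and 0.00677 in the second libraries. The smaller difference of PEG10 was 6.71. SGCE, which shares its imprinted start region with PEG10 and runs the other way, was at 7.08 FPKM in FTC-133 against 0.368 and 0. NDN, an imprinted gene of chromosome 15 that restrains cell growth, was at 16.3 FPKM in FTC-133 and at 0 in both other control libraries.

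Several secreted signals and surface proteins stood at the same end. THY1, a surface glycoprotein of fibroblasts and neurons, was at 79.6 FPKM in FTC-133 and listed at 0 in both other lines, and at 56.5 FPKM in the second FTC-133 library. PTN, the growth factor pleiotrophin, was at 77.0 FPKM against 0 in BHT-101 and 0.128 in 8505C, and SPP1, the secreted phosphoprotein osteopontin, was at 73.3 against 0.0462 and 0.302. In the second libraries PTN was at 55.8, 0 and 0.449 FPKM and SPP1 at 101, 0.135 and 0.234 in FTC-133, BHT-101 and 8505C, with smaller differences that went from 6.11 to 5.29 for PTN and from 5.84 to 6.36 for SPP1. GPC4, a cell-surface heparan sulfate proteoglycan, was at 24.7 FPKM and at 0 in the other lines. NRN1, a small membrane-anchored neurite protein, was at 25.7 FPKM in FTC-133 and 0 in both others. CCNA1, a cyclin of the male germ line, was at 34.7 FPKM in FTC-133, 0.0477 in BHT-101 and 0 in 8505C. FIBIN, a secreted protein of limb development, was at 25.2 FPKM against 0 and 0.0226. BAALC, a gene of neuroectoderm and early blood progenitors, was at 24.8 against 0.0269 and 0.0219.

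**Figure D3:**
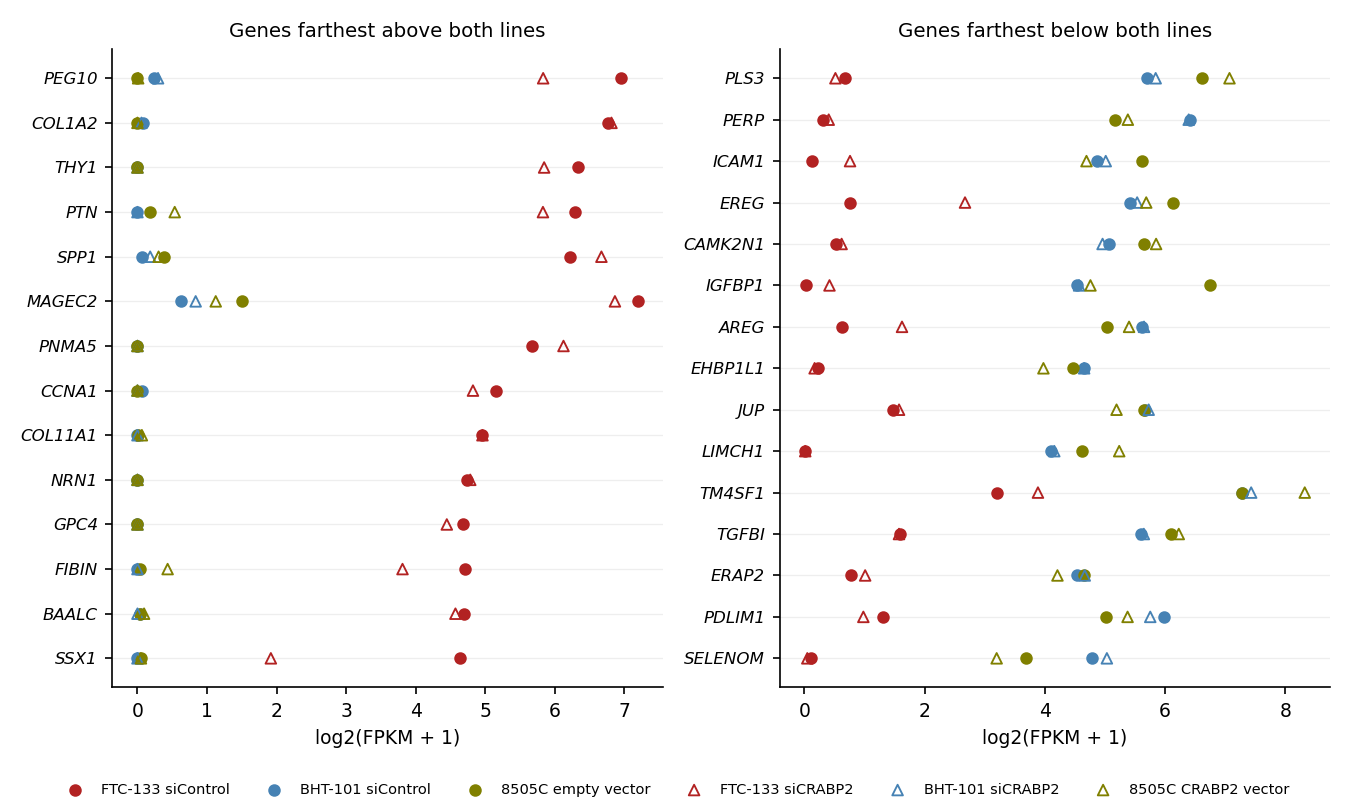
Expression as log2(FPKM + 1) on the x axis of genes farthest above (left) and below (right) both lines, ordered by the smaller difference. Filled circles are control libraries and open triangles CRABP2-treated ones. The FTC-133 libraries stand apart in both panels, and SSX1 and EREG lie nearer to the other lines in the siCRABP2 library than in the control library.

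Collagen and laminin genes form the scaffold around cells. COL1A2, which encodes the second chain of type I collagen, was at 107 FPKM in FTC-133, 0.0609 in BHT-101 and 0 in 8505C. In the second libraries COL1A2 was at 111, 0.0401 and 0 FPKM. COL1A1, the partner chain, was at 39.6 FPKM against 1.73 in BHT-101 and 0.0446 in 8505C. COL11A1 was at 29.8 FPKM against 0 and 0.00481, and COL5A1, whose chain starts collagen fibrils, was at 94.5 against 1.84 and 7.06. Of 29 measured collagen and laminin genes 6 were above both lines and 0 below, beside 2.09% and 0.769% over all genes, the remaining members being the basement membrane genes COL4A1 (22.1, 2.86 and 1.54 FPKM in FTC-133, BHT-101 and 8505C) and LAMA2 (4.83, 0.155 and 0.249). Over the 6 libraries 5 of these stayed apart. In 4 of the 29 genes both other lines were under 1 FPKM, so they were measured through FTC-133 alone, beside 6.11% of all genes. The minimum thus favours the count above both lines, which is not read against the 2.09%. The list as a whole was shifted little, with medians of 0.29 against BHT-101 and 0.22 against 8505C. COL3A1, another fibrillar collagen, was low everywhere at 1.71, 0 and 2.67 FPKM.

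Other matrix proteins were looked at singly. FN1, fibronectin, was at 604 FPKM in FTC-133, 60.1 in BHT-101 and 51.6 in 8505C, and at 443, 55.2 and 74.7 in the second libraries. POSTN, periostin, was at 51.3 FPKM against 0.00655 in BHT-101 and 6.94 in 8505C, and 8505C with the CRABP2 vector reached 25.9. FBN1, the microfibril protein fibrillin, was at 27.4 against 2.06 and 1.64, and PCOLCE, which speeds the trimming of procollagen, at 52.8 against 2.66 and 0.392; both were singled out after their values were seen.

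Among 26 measured mesenchymal markers 8 were above both lines and 1 was below, beside 2.09% and 0.769% over all genes. Median differences were 2.09 against BHT-101 and 1.41 against 8505C, beside 0.20 and 0.15 over all genes. FTC-133 alone brought 5 of the 26 over the minimum, beside 6.11% of all measured genes. The minimum favours the count above both and the medians, so neither is read against the values over all genes. Over the 6 libraries 6 of the 8 stayed at least 2 above. FAP, a fibroblast surface protease, was at 12.1 FPKM against 0 and 0.044. ACTA2, smooth muscle actin, was at 14.8 FPKM in FTC-133, 0.276 in BHT-101 and 0.926 in 8505C, and TWIST2, a basic helix-loop-helix factor of mesenchyme, was at 4.81 and listed at 0 in both other lines. VIM, vimentin, was high in all lines at 391, 134 and 151 FPKM. The exception was TGFBI, a secreted adhesion protein induced by TGF-beta, at 2.01 FPKM in FTC-133 against 47.7 in BHT-101 and 67.5 in 8505C. Defining fibroblast markers were not all present, with DCN at 0.0578 FPKM and PDGFRB at 0.689 in FTC-133. LUM was present in FTC-133 at 13.2 FPKM but higher in BHT-101 at 80.2. Among 28 markers of other cell types 8 were measured, and 3 were above both lines (COL1A1, ACTA2 and CALCA), beside 2.09% over all genes. These 3 are also counted in the collagen, mesenchymal and neuronal lists, so they are no further group. FTC-133 alone brought 2 of the 8 over the minimum. The blood marker PTPRC was at 0.0176 FPKM, the endothelial marker VWF at 0.116 and the haemoglobin gene HBB at 0 in FTC-133.

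Some protease genes were far above both lines, but the group as a whole was not. MMP14, a membrane-bound metalloproteinase that activates MMP2, was at 574 FPKM in FTC-133, 53.6 in BHT-101 and 4.71 in 8505C, and at 877, 44.2 and 4.26 in the second libraries. MMP2, a gelatinase, was at 274, 41.7 and 1.39 FPKM in the control libraries. Of 23 measured genes of the matrix protease and plasminogen list 6 were above both lines by the rule and 0 below, beside 2.09% and 0.769% over all genes, including ADAM12 (12.0, 0.348 and 0.444 FPKM), ADAM19 (8.42, 0.288 and 1.21) and ADAMTS1 (11.4, 0.147 and 1.69). The median of the list was 0.68 against BHT-101 and -0.74 against 8505C, and 9 of the 23 lay above both lines by any amount. The 6 became 4 over the 6 libraries and also 4 when libraries were scaled by the median ratio.

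Of 15 measured integrin subunits, the receptors that hold cells to matrix, 3 were below both lines by the rule and 0 above, beside 0.769% and 2.09% over all genes. ITGA1, a collagen-binding integrin chain, was at 0.206 FPKM in FTC-133, 8.88 in BHT-101 and 23.4 in 8505C. ITGA2, also a collagen-binding chain, was at 2.03 against 18.8 and 30.8. ITGB4, the hemidesmosome chain that binds laminin, was at 1.86 against 17.9 and 23.1. All 3 were also apart over the 6 libraries. The list's median was 0.03 against BHT-101 and -0.95 against 8505C, and by any amount 7 subunits lay below both lines and 4 above. ITGA5, the chain of the fibronectin receptor, was at 60.0 FPKM in FTC-133, 7.88 in BHT-101 and 27.0 in 8505C. ITGB1, its partner, was at 170, 166 and 443.

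Of 25 measured junction genes 2 were below both lines by the rule and 0 above, beside 0.769% and 2.09% over all genes, and both encode desmosome proteins. JUP, plakoglobin, was at 1.79 FPKM against 49.7 in BHT-101 and 49.4 in 8505C, and at 1.98, 52.0 and 35.6 in the second libraries. DSP, desmoplakin, was at 0.00401 FPKM against 12.2 and 5.10. PERP, a desmosomal membrane protein outside the list, was at 0.240 against 83.9 and 35.1. DSG2, a desmosomal cadherin, was at 26.8, 18.9 and 14.0 FPKM in FTC-133, BHT-101 and 8505C, so not every desmosome gene was low. The junction list had medians of -2.44 against BHT-101 and -0.07 against 8505C. E-cadherin (CDH1) was at 0.099 FPKM in FTC-133, 4.74 in BHT-101 and 0.00717 in 8505C, and EPCAM at 2.57, 20.4 and 0.174. For these surface markers BHT-101 stood apart, and FTC-133 and 8505C were both low. Among keratins, the filament genes of epithelium, KRT18 was at 18.2 FPKM in FTC-133 against 145 and 102, and KRT19 at 0.310 against 328 in BHT-101 and 0.0187 in 8505C.

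**Figure D4:**
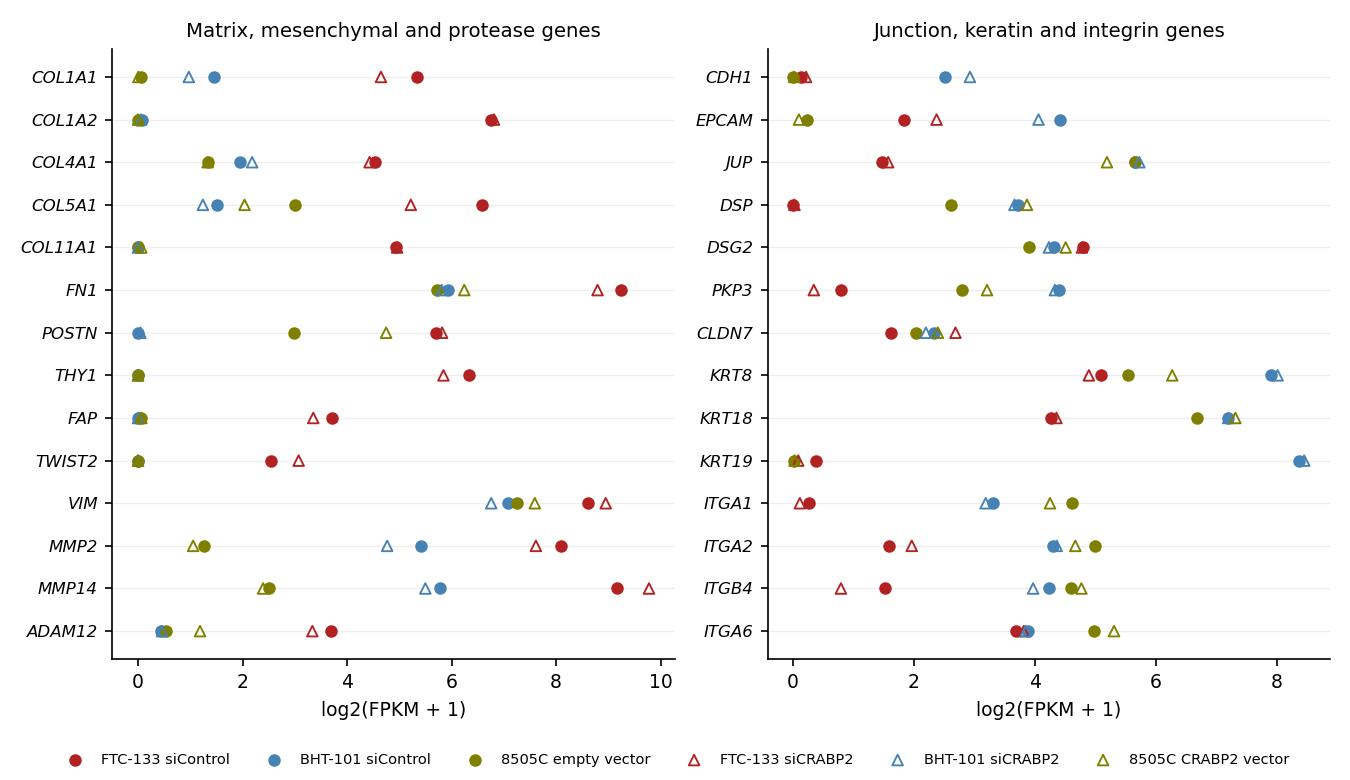
Expression as log2(FPKM + 1) on the x axis of matrix, mesenchymal and protease genes (left) and of junction, keratin and integrin genes (right) in the 6 libraries, with control libraries as filled circles and CRABP2-treated ones as open triangles. COL1A2, THY1 and FN1 are highest in both FTC-133 libraries, and JUP, DSP and ITGA1 are lowest there among the libraries of the 3 lines.

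The genes farthest below both lines had varied roles. PLS3, an actin-bundling protein, was at 0.599 FPKM in FTC-133, 51.1 in BHT-101 and 97.0 in 8505C, and at 0.431, 56.5 and 134 in the second libraries. The smaller difference of PLS3 was -5.03, the farthest below. LIMCH1, which activates non-muscle myosin, was at 0.00371 FPKM against 16.2 and 23.5, and PDLIM1, an actin-bound LIM protein, at 1.47 against 62.1 and 31.2. TM4SF1, a tetraspanin-like membrane protein, was at 8.21 FPKM against 155 and 154. ICAM1, the leukocyte adhesion receptor, was at 0.0935 against 28.1 and 48.1. EHBP1L1, a membrane traffic adaptor, was at 0.168 FPKM against 24.3 and 21.2. CAMK2N1, an inhibitor of a calcium-dependent kinase, was at 0.448 against 32.6 and 49.2. SELENOM, a selenoprotein of the endoplasmic reticulum, was at 0.0758 against 26.6 and 11.8.

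Ligands of the EGF receptor start MAPK signalling from the cell surface. EREG, epiregulin, was at 0.698 FPKM in FTC-133, 41.8 in BHT-101 and 69.3 in 8505C, and AREG, amphiregulin, at 0.540, 48.2 and 31.9. In the siCRABP2 library of FTC-133 they were at 5.38 and 2.08 FPKM, still below the libraries of the other lines. EREG (chromosome 4, 74365143 to 74388751) and AREG (74445134 to 74455009) are next to each other among the measured genes, with 56382 bases between them. TGFA, another ligand, was at 6.75, 10.002 and 10.3 FPKM, and HBEGF at 5.07, 2.01 and 37.1. The receptor EGFR was at 11.1 FPKM in FTC-133, 11.5 in BHT-101 and 29.3 in 8505C. FTC-133 was thus close to BHT-101 for EGFR, unlike for EREG and AREG.

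Genes that report MAPK activity lay mostly below both lines. Of 34 listed genes, all measured, 4 were below both lines by the rule and 0 above, beside 0.769% and 2.09% over all genes. By any amount 22 of the 34 lay below both and 6 above both, beside 20.7% and 39.5% of all genes. In the second libraries 2 were below both by the rule. The list's median was -0.42 against BHT-101 and -0.97 against 8505C. DUSP4, a phosphatase that switches off ERK, was at 1.82 FPKM in FTC-133, 18.4 in BHT-101 and 42.8 in 8505C, and DUSP5 at 11.3, 62.4 and 80.5. SPRY4, a feedback inhibitor of RAS signalling, was at 1.04, 8.88 and 11.8 FPKM, and ETV4, an ETS factor induced by ERK, at 3.04, 17.5 and 21.9. DUSP6 was just outside the rule at 4.59, 21.3 and 30.6 FPKM, with a smaller difference of -1.99.

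The MAPK group was not uniform and depended on the second libraries. FOSL1, an AP-1 factor, was at 43.3 FPKM in FTC-133, 15.7 in BHT-101 and 46.5 in 8505C, and ETV1 was highest in FTC-133 at 12.7 against 4.52 and 4.29. PHLDA1 was at 31.0, 27.1 and 28.3 FPKM. None of the 4 called genes was at least 2 below over the 6 libraries, and DUSP5 was at 48.5 FPKM in FTC-133 with siCRABP2, beside 62.5 in BHT-101 with siCRABP2.

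PI3K signalling, which promotes growth and survival through AKT, was described by its pathway genes. Of 36 measured genes of the PI3K and AKT pathway and its FOXO targets, 1 was above both lines and 1 below. KLF2, a FOXO-induced factor, was at 14.6 FPKM against 1.47 and 0.282. TRIB3, a stress-induced pseudokinase that binds AKT, was at 6.87 FPKM against 63.5 and 117, but at 29.6 in the siCRABP2 library of FTC-133. These single genes are 2.78% of the list in each direction, beside 2.09% above and 0.769% below over all genes.

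Other growth factor genes differed singly. FGF5, a fibroblast growth factor, was at 28.6 FPKM against 2.06 and 2.25, and the orphan receptor tyrosine kinase ROS1 at 10.2 against 0.0182 and 0.234. Of 34 measured receptor tyrosine kinases and ligands these 2 were above both lines, and EREG and AREG were the 2 below, beside 2.09% and 0.769% over all genes. FTC-133 alone brought 5 of the 34 over the minimum, beside 6.11% of all measured genes, which favours the count above. Among insulin-like growth factor binding proteins, IGFBP1 was at 0.0245 FPKM against 22.2 and 106, IGFBP2 at 0.0255 against 66.9 and 5.34, and IGFBP5 at 36.1 against 0.00553 and 1.56. INHBA, the activin A subunit, was at 33.4 FPKM against 0.0345 and 3.82, and GREM1, a secreted antagonist of bone morphogenetic proteins, at 19.8 against 0.936 and 0.0118. BMP2, a ligand of that family, was low in FTC-133 with 1.75 against 16.6 and 21.7 FPKM. In the second libraries FGF5, IGFBP5 and BMP2 no longer met the rule, with smaller differences of 1.39, 1.82 and -1.71. ROS1, IGFBP1, IGFBP2, INHBA and GREM1 met it there too.

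Cancer-testis antigens, which are normally confined to germ cells and are mostly encoded on chromosome X, gave some of the highest single values. Of 82 family entries 26 were measured, 13 of them through FTC-133 alone, since both other lines were under 1 FPKM there. Over all measured genes 6.11% were measured that way. By the rule 7 were above both lines and 0 below, a count that the minimum favours and that is not read against the 2.09% over all genes. MAGEC2 was at 145 FPKM in FTC-133, 0.538 in BHT-101 and 1.82 in 8505C, and at 115, 0.786 and 1.18 in the second libraries. MAGEA4 was at 16.7 FPKM and listed at 0 in both other control libraries, and MAGEA10 was at 44.6 against 0.0123 and 0.936. PAGE2 was at 79.7 FPKM against 6.44 and 0.

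Not all members followed. MAGEA3 was at 73.2 FPKM in FTC-133, 181 in BHT-101 and 72.7 in 8505C, and CTAG2 at 187, 118 and 0. SSX1 was at 23.8 FPKM against 0 and 0.0337 but at 2.78 in the second FTC-133 library, and was the 1 of the 7 that was not apart over the 6 libraries. Members of these families are near-identical copies, so reads may have been split between them and single values are uncertain. On chromosome X 20 of 452 measured genes were above both lines (4.42%), beside 2.09% over all chromosomes, 4.90% on chromosome 13, 3.70% on chromosome 7 and 3.60% on chromosome 21.

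Some neuronal genes were in the higher set. NCAM1, a neural adhesion molecule, was at 9.96 FPKM against 0 and 0.113, CALCA, which encodes calcitonin and its related peptide, at 5.74 against 0 in both, and GAP43, a growth cone protein, at 7.47 against 0.0514 and 0.44. Of 17 measured neuronal and neuroendocrine markers 4 were above both lines and 1 below, beside 2.09% and 0.769% over all genes. Over the 6 libraries 2 of the 4 stayed apart. FTC-133 alone brought 6 of the 17 over the minimum, beside 6.11% of all measured genes. The count above is therefore favoured by the minimum and is not read against the 2.09%. CHGA, a secretory granule protein that also marks the calcitonin-producing C cell, was near 0 at 0.0266 FPKM in FTC-133. UCHL1, a neuronal deubiquitinase, was lower, at 0.0353 FPKM against 214 in BHT-101 and 10.3 in 8505C.

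Of the metabolic groups, hypoxia and glycolysis genes lay above both lines by any amount in 23 of 30, beside 39.5% of all genes. By the rule 2 were above and 1 below, beside 2.09% and 0.769%. SLC2A1, the glucose transporter, was at 125 FPKM in FTC-133, 16.9 in BHT-101 and 13.9 in 8505C, and CA9, a carbonic anhydrase induced by hypoxia, at 17.8, 0.534 and 0.299. SLC16A3, the lactate exporter, went the other way at 2.34 against 49.4 and 13.7. The list's medians were 1.11 and 1.22, beside 0.20 and 0.15 over all genes. Of the 30, 3 were measured through FTC-133 alone, beside 6.11% of all measured genes. The minimum favours the counts above and the medians, so neither is read against the values over all genes. No value for oxygen or culture density is given in the sources used here.

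Inflammatory genes depended on the library. Of 29 measured NF-kB targets and cytokines 2 were below both lines by the rule (ICAM1 and SOD2) and 1 was above, beside 0.769% and 2.09% over all genes. By any amount 16 of the 29 lay below both, beside 20.7% of all genes, with medians of -1.13 and -1.97. In the second libraries 1 was below by the rule and 3 were above, and of the 2 below only ICAM1 stayed apart over the 6 libraries. SOD2, a mitochondrial superoxide dismutase, was at 6.03 FPKM in FTC-133 with siControl but at 33.1 with siCRABP2, beside 48.2 in BHT-101 with siCRABP2. CXCL6, a neutrophil chemokine, was the member above, at 4.09 FPKM against 0.0877 and 0. Among chemokines CXCL12 was also above, at 20.2 FPKM against 0.00589 and 0.0072, and at 3.46 in the second FTC-133 library. ERAP2, which trims peptides for class I presentation, was at 0.722 FPKM against 22.1 and 24.1, and IFITM3, an interferon-induced antiviral protein, at 43.0 against 375 and 407.

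Cell cycle genes separated 8505C more than FTC-133. The median FPKM of 34 proliferation genes was 26.4 in FTC-133, 14.2 in BHT-101 and 0.712 in 8505C, and 32 of them were highest in FTC-133 (39.5% of all genes were), yet 0 met the rule. MKI67, a marker of cycling cells, was at 16.7, 8.62 and 0.290 FPKM. Every comparison against 8505C used the library with this low level, and the part of that level in the results above was not tested. CDKN2C, an inhibitor of cyclin-dependent kinases, was above both lines at 84.3 FPKM against 9.60 and 2.22. In the second libraries its smaller difference was 1.91, just short of the rule. CDKN2A was highest in FTC-133 too, at 72.3 against 20.8 and 8.13.

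Gene lists without a member apart from both lines were proliferation (34 measured), cholesterol synthesis (24), p53 targets (20), Notch (15) and retinoid handling and receptors (17). In the large families the calls were few, with 1 solute carrier above and 4 below of 213 measured, and 2 zinc finger ZNF genes above and 0 below of 348. These shares are at or below the 2.09% above and 0.769% below over all measured genes, except for the solute carriers below. Among these, SLC7A5, the large neutral amino acid carrier, was at 7.76 FPKM in FTC-133, 76.3 in BHT-101 and 123 in 8505C. Its smaller difference went from -3.14 to -1.24 in the second libraries, where it did not meet the rule.

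**Figure D5:**
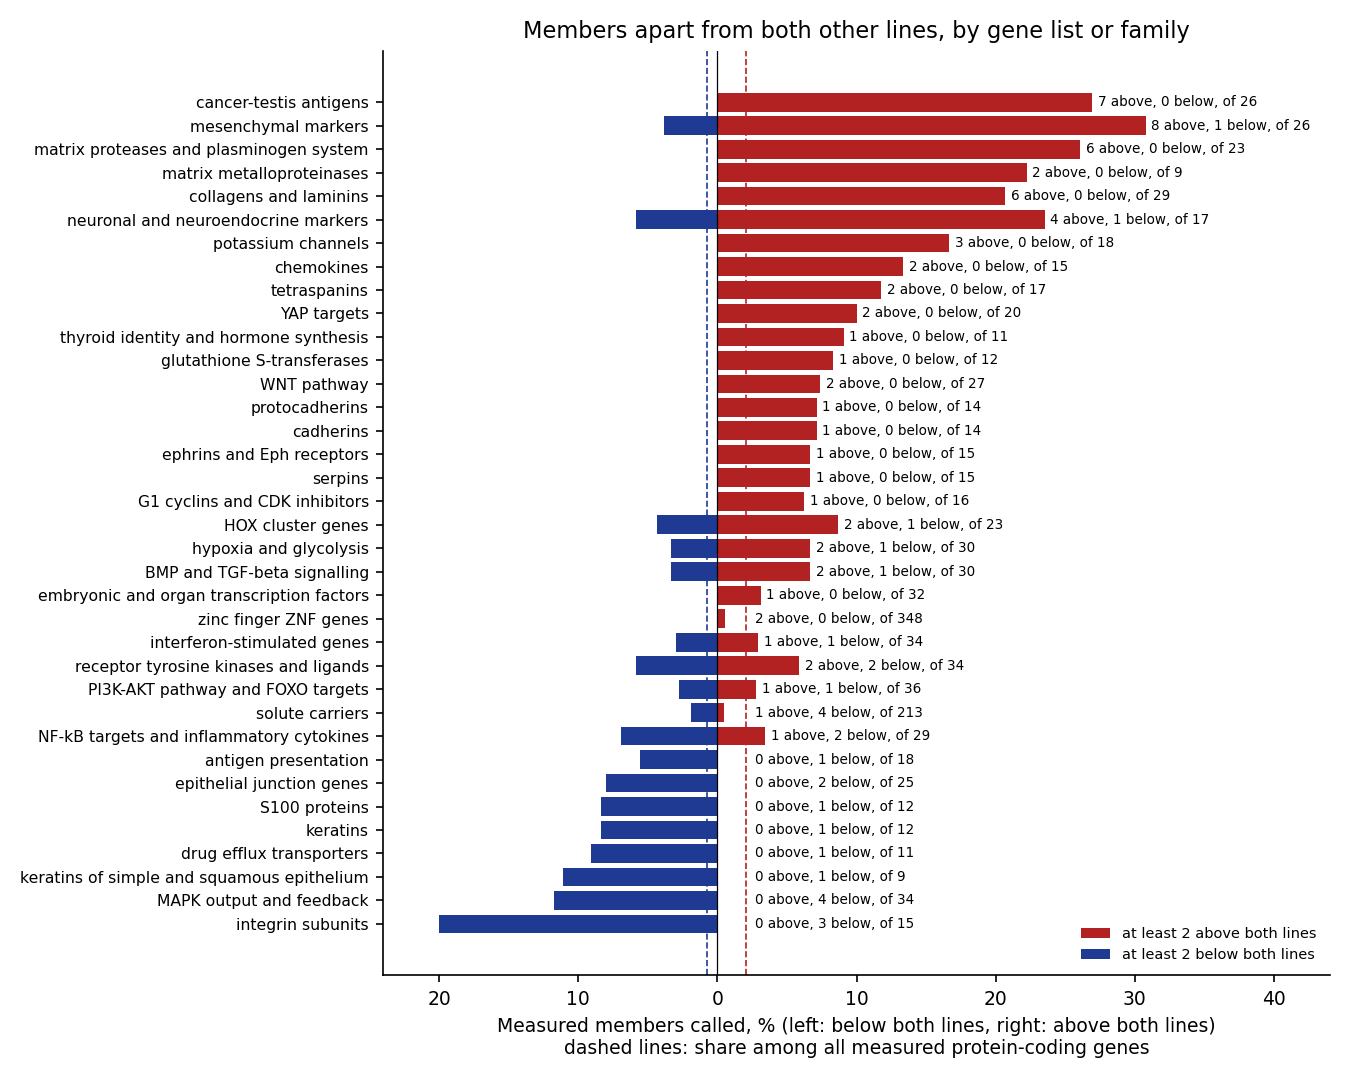
Share of measured members called above both lines (red, to the right) and below both lines (blue, to the left) for each gene list or family with a call and enough measured members to plot (the shortest holds 9), without markers of other cell types, in percent, with counts beside each bar. Dashed lines mark 2.09% and 0.769%, the shares over all measured protein-coding genes. Cancer-testis antigens, mesenchymal markers and matrix proteases are the 3 longest bars above, while integrin subunits reach farthest below. In the order of those 3 lists, 13 of 26, 5 of 26 and 2 of 23 members were measured through FTC-133 alone. Over all genes this share was 6.11%, and such members favour bars above.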

How the data were processed

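Of 6 RNA sequencing libraries, the 3 controls (1 per line) were compared. The authors deposited FPKM, so length and depth had been corrected before deposit. Per the submitters' processing notes, FastQC, Trimmomatic 0.38, featureCounts 2.0.0 and GRCh38 were used. Aligner, annotation release and strand setting were not given in the sources used here. Overlapping or antisense genes therefore cannot be told apart, and near-identical copies are uncertain.

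Groups came from the sample titles. Names, gene types and positions came from GENCODE release 29 by gene identifier, which matched 58611 of 58884 identifiers. Read totals came from FPKM multiplied by the exon length of that release. Values fell on whole reads (tolerance 0.001) in 75.2% of the 33700 genes above 0, and in 45.9% of the called genes, whose other read numbers are rounded.

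Values were log2(FPKM + 1), the minimum was 1 FPKM in 1 or more of the 3 libraries, and the call was a difference of at least 2 from both lines in the same direction. Comparisons, 27 gene lists and 24 symbol families (782 list entries) were written with earlier results of these data known. Genes were named by rule: CRABP2 and measured thyroid genes, the 15 farthest above and 15 farthest below with at least 5 FPKM, up to 5 called members of each list or family, and members whose role a sentence needs. FBN1, PCOLCE, SGCE, NDN, list members given as exceptions and the genes of the closing observations were chosen after their values were seen. Promoter windows were matched by symbol for 250 of 342 called genes (73.1%), so no count over called promoters is given. Python 3.11.15, pandas 2.3.3 and numpy 2.4.6 were used. Some genes that the rule names are not reported here. The calling step was tested on simulated reads with counting noise only and with changes placed in well-expressed genes. That simulation held no spread between cultures and no changed low genes, so it does not bear on either. Alternatives were other pseudocounts, minimums, scalings, call sizes, gene types and the second libraries. The comparison over all 6 libraries was added after the data were seen.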

Additional observations from a re-analysis of the deposited data

How the results depend on the processing

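No paired analysis was possible because each condition has 1 library and the labels give no replicate numbers. Counts are given in the order above both lines, below both lines, above BHT-101, below BHT-101, above 8505C and below 8505C. With a pseudocount of 0.1 they were 569, 248, 997, 810, 1688 and 715, and with 5 they were 69, 22, 110, 164, 294 and 119, since a larger pseudocount shrinks differences of low genes. At a call size of 1 they were 1043, 330, 1794, 1221, 2732 and 1475, and at 3 they were 92, 27, 157, 200, 326 and 131. Over all 6 libraries, 157 genes lay above and 53 below, as that rule asks more of each gene. The other alternatives (a minimum of 5 FPKM, no minimum, scaling by the median ratio, quantile normalization, all gene types and the second libraries) kept these counts within 1.5 times. Of 104 named genes that were called, 104 stayed called with a pseudocount of 0.1, 100 with the median ratio and 74 in the second libraries, and 0 changed direction. Of 102 counts of list members called, 46 moved by more than 1.5 times with a pseudocount of 0.1, 5 with the median ratio and 23 in the second libraries, and the cause was not tested. With 1 library per line and another kind of transfection in 8505C, spread between cultures is unknown. Called genes had at least 38 reads (higher) or 65 reads (lower) in the library where they were high.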

Other observations

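Several genes outside the lists stood apart from both lines. MSH6, a mismatch repair subunit, was at 0.663 FPKM in FTC-133, 5.73 in BHT-101 and 7.26 in 8505C, and at 0.582, 5.85 and 6.84 in the second libraries. GLUL, glutamine synthetase, was at 0.0669 FPKM in FTC-133 against 25.1 and 10.04. HMOX1, the haem-degrading oxygenase, was at 107 FPKM against 6.64 and 3.05, and at 353 in FTC-133 with siCRABP2. GPNMB, a lysosomal glycoprotein, was at 76.3 FPKM against 0.207 and 5.33, and RRAGD, a GTPase that recruits mTORC1 to lysosomes, at 25.5 against 0.712 and 1.09. CGA, the common subunit of glycoprotein hormones, was at 8.96 FPKM against 0 and 0.134, CGB8 at 4.34 against 0 in both, and PSG1 at 5.79 against 0 and 0.512. CD36, a fatty acid receptor, was at 26.3 FPKM against 0.605 and 0.0724, and GNAT3, which overlaps it on the opposite strand, at 21.0 against 0 in both. Without strand the reads of CD36 and GNAT3 cannot be told apart.

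Of 1464 measured long noncoding RNAs, 64 (4.37%) lay at least 2 above both lines in FTC-133 and 5 (0.342%) at least 2 below. Protein-coding genes gave 2.09% and 0.769%. Most of the 64 were under 1 FPKM in both other lines and so were measured through FTC-133 alone. Low genes can hardly be called below, so these shares are not read against those of protein-coding genes. The same count around BHT-101 gave 46 (3.14%) and 5 (0.342%), and around 8505C 16 (1.09%) and 12 (0.820%). AL713998.1 was at 233 FPKM in FTC-133 and listed at 0 in both other control libraries, and at 122 in the second FTC-133 library. LINC01287 was at 31.2 FPKM against 0.0430 and 0, and LINC00317 at 23.6 against 0 in both. AC244153.1 was listed at 0 in FTC-133 and was at 14.0 FPKM in BHT-101 and 14.5 in 8505C.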
